A study of Mus musculus with 140 samples.

Results

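The respiratory chain of the inner mitochondrial membrane passes electrons from NADH and succinate to oxygen, and its complexes I, III and IV pump protons whose return through complex V, the ATP synthase, drives ATP production. A small set of its subunits is encoded by the mitochondrial genome, while most are encoded by nuclear genes, translated in the cytosol and imported. Kidney tubules, above all the proximal tubule, are rich in mitochondria because solute reabsorption is paid for with ATP, and several tissues build complex IV with alternative isoforms of the same subunit. The genes described here are the nuclear-encoded subunit genes, chosen by symbol: names of the Nduf (complex I), Sdh (complex II), Uqcr (complex III), Cox4 to Cox8 (complex IV) and Atp5 (complex V) series, without assembly factors and predicted genes. Of 34255 genes in the deposited table, 89 met this rule, and 11 further rows with pseudogene names were left out. Complex I contributed 41 genes, complex II 4, complex III 8, complex IV 19 and complex V 17. Ndufa4 and Ndufa4l2 were counted under complex I by their symbols, although the Ndufa4 protein is now assigned to complex IV. The rule itself uses names and no measured value.

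The mice were male, wild type (WT) and of strain C57BL6/OlaHsd, and their kidney RNA was sequenced with QuantSeq, a method that reads the 3′ end of polyadenylated transcripts. The 7 groups of 4 mice were healthy mice at 0 h and, at each of 4, 24 and 72 h, mice with sham surgery and mice with CLP. CLP stands for cecal ligation and puncture, in which the cecum is tied off and pierced so that gut content leaks into the abdomen and causes sepsis. Neither age nor any drug or fluid given is named in the sources used here. From each of the 28 mice there were 5 libraries, 140 in all: 4 from laser-microdissected compartments (arterioles, post-capillary venules, peritubular capillaries, glomeruli) and 1 from undissected whole kidney. The design asks how gene expression in each compartment differed between CLP and sham at each time.

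Library totals were 4.24 M to 18.3 M counts, and whole kidney libraries showed 17604 to 20474 genes with at least 1 count and peritubular libraries 2949 to 13327. Levels are given as CPM, the usual counts-per-million scale, on library totals corrected by TMM, a correction for library composition. The correction was made apart for each compartment and for the healthy microdissected libraries together. CPM of the same library therefore differ between the healthy comparison of compartments and the other comparisons. Because each transcript gives reads from its end, CPM is not divided by length, and levels of different genes are set side by side on that 3′ end scale. A gene passed the test when its p from edgeR's quasi-likelihood F test, adjusted by the Benjamini-Hochberg method over all genes tested, was under 0.05, and "called" means this throughout. P-values weigh a difference against the spread between mice within groups, estimated over all groups of a fit. In the healthy comparison of compartments, differences between mice were fitted first and the remaining spread was used. Log2 fold changes are followed by their standard error (SE). The biological coefficient of variation, the typical replicate spread of a gene, was 0.241 in whole kidney and 1.40 to 1.94 in the 4 microdissected compartments, so that only large differences could be called there. In healthy mice the microdissected material also differed from its labels in part. Proximal tubule markers held at least 7.71% of counts in the libraries labelled peritubular capillaries, against 5.32% to 5.70% in whole kidney. Endothelial markers held 0.0518% to 0.123% in these peritubular libraries, against 0.472% to 0.568% in glomeruli. Over the libraries of all groups, endothelial markers held 0.00324% to 0.154% in peritubular capillaries, 0.0688% to 0.0959% in whole kidney and 0.055% to 0.241% in venules.

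Promoter sequences were examined for 4 subunit genes that edgeR called in opposite directions in healthy glomeruli and healthy peritubular capillaries, as described below. The sequences are from RefSeq on build GRCm38.p6, begin 250 bases before the RefSeq start and end before the earlier of the RefSeq and GENCODE starts, so that they hold 216, 250, 227 and 182 bases in the order given. They are 5′ to 3′ in the direction of transcription. Capitals mark matches on either strand to GCGCATGCG (the NRF1 motif), CCGGAAG (an ETS core, as read by GABP), TCAAGGTCA (the ERR motif), AAGATGGCG (YY1) or CCAAT.
Atp5b, chr10:128083057-128083272, plus strand: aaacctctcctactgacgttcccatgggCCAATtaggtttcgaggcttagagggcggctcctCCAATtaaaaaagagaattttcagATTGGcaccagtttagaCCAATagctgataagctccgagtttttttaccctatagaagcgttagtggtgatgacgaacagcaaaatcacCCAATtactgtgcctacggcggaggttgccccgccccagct
Atp5g3, chr2:73911327-73911576, minus strand: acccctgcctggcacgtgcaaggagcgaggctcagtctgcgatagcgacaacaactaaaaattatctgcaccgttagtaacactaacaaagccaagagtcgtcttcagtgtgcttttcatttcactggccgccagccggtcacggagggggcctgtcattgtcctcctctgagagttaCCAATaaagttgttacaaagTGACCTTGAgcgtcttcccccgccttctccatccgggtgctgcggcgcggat
Cox6a1, chr5:115348982-115349208, minus strand: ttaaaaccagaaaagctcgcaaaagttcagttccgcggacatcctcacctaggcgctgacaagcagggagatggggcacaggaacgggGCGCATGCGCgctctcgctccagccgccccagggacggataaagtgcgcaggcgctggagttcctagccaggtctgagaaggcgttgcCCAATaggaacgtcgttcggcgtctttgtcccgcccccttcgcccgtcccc
Sdhb, chr4:140961021-140961202, plus strand: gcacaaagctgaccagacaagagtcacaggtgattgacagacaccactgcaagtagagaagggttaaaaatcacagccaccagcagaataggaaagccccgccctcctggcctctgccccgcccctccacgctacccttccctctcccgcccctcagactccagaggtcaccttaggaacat
Within the printed bases Atp5b held CCAAT at 5 places, Atp5g3 the ERR motif and CCAAT, and Cox6a1 NRF1 overlapping on both strands and CCAAT. The printed Sdhb stretch held none of the 5 motifs, but in the bases left off before and after its RefSeq start there were CCAAT (at -9) and an ETS core (at 6), and for Cox6a1 an ETS core (at -16). CCAAT thus lay before the RefSeq start in all 4 genes. Over windows of 300 bases, 250 before and 50 after the start, 69 of the 89 subunit genes were found in the promoter table. The NRF1 motif, of a transcription factor known for activating respiratory chain genes, was in 11.6% of them, in 3.42% of the genes tested in whole kidney and in 1.81% of all 27025 genes listed. ETS cores were in 23.2%, 17.2% and 9.12% of these sets and the longer ETS motif CCGGAAGTG in 2.9%, 4.22% and 2.06%. The ERR motif was in 2.9%, 0.255% and 0.407%, and the YY1 motif in 8.7%, 3.04% and 1.49%. For ERR the 2.9% stands for 2 of 69 genes, Atp5g3 and Sdhd, and in Sdhd the match lay after the RefSeq start. CCAAT occurred in 43.5%, 38.2% and 37.9%. A match is a description of letters and not a bound site.

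In healthy mice the subunit genes stood lowest in glomeruli and arterioles and highest in peritubular capillaries and venules. Summed over the 89 genes they held 2.57% ± 0.47 (SD, n = 4) of counts in glomeruli and 2.66% ± 0.20 in arterioles, against 4.26% ± 0.20 in peritubular capillaries, 4.19% ± 0.18 in venules and 4.12% ± 0.27 in undissected kidney. The highest glomerular library, at 3.10%, stayed below the lowest peritubular library, at 4.02%. The share of proximal tubule markers was 0.97% to 1.33% in glomeruli, 0.657% to 1.78% in arterioles, at least 7.71% in peritubular capillaries and 3.29% to 3.77% in venules, so both sums were low in the first pair of compartments and high in the second. The part of tubule material in the subunit levels was not tested. In bulk libraries such as these, fewer cells of a type and less RNA per cell cannot be told apart.

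**Figure D1:**
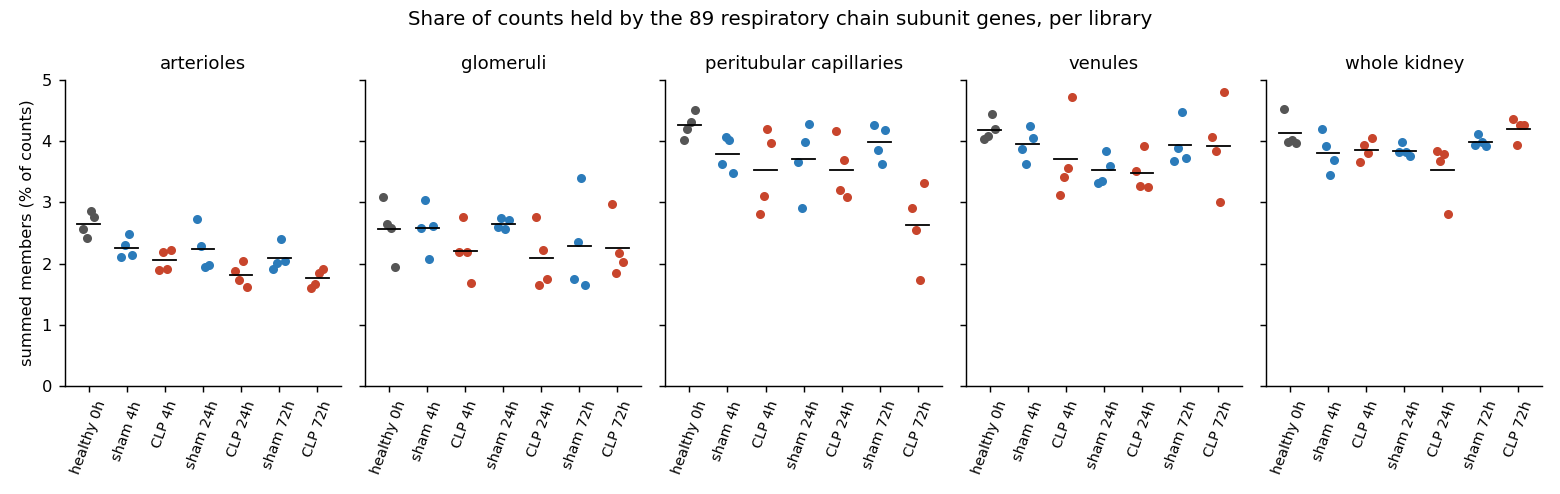
Share of all counts (%, vertical axis) held by the 89 respiratory chain subunit genes, 1 point per library and a bar at the mean, with groups along the horizontal axis and 1 panel per compartment. In healthy mice arterioles and glomeruli lie at 1.95% to 3.10% and the other compartments at 3.96% to 4.52%, and the 4 peritubular libraries of CLP at 72 h lie between 1.74% and 3.32%.

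Each microdissected compartment of the healthy mice was compared with the mean of the other 3, with the mouse as a block, and 81 subunit genes could be tested. In glomeruli, the filtration tufts, 76 of 81 subunit genes had negative fold changes, with a median log2 difference of -1.03 where the median of all genes tested was 0.38. Of these, 19 were called lower and none higher, 23.5% of the subunit genes against 1.38% of all genes called lower. In peritubular libraries 72 of 81 were positive, with a median of 0.78 against -0.04 for all genes, and 11 were called higher and none lower, while 3.52% of all genes were called higher. These contrasts share libraries, so a gene low in one compartment is pushed up in the others. Both counts leaned on single mice. The glomerular count fell to 4 without healthy replicate 3 or 4 and to 11 without replicate 2, and the peritubular count to 0 without replicate 3 and to 5 without replicate 4.

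By complex, the glomerular calls were 5 of 38 tested genes in complex I, 1 of 4 in complex II, 0 of 8 in complex III, 7 of 15 in complex IV and 6 of 16 in complex V. All 8 complex III genes were nevertheless negative, with a median of -1.04, next to -0.83, -1.09, -1.07 and -1.06 for complexes I, II, IV and V. By edgeR, 44 of the 81 subunit genes had an unadjusted p under 0.05 in glomeruli, all lower, which is 54.3% against 15% of all genes. The lowest values among the called genes were for Atp5md, a small membrane subunit of the ATP synthase (-2.10 ± 0.50, adjusted p = 0.00475), Ndufb6, an accessory subunit of the membrane arm of complex I (-2.02 ± 0.58, adjusted p = 0.0264), and Cox7c (-1.61 ± 0.38, adjusted p = 0.00436). Ndufa1 (-1.59) and Atp5pb, the b subunit of the ATP synthase stalk (-1.48), were also among the 6 lowest.

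Atp5g3 (chromosome 2, 73908447 to 73911326, GRCm38), which encodes the proton-carrying c subunit of the ATP synthase rotor, gave the smallest adjusted p. It measured 967, 890, 721 and 618 CPM in the glomeruli of the 4 mice and 2279, 2139, 3069 and 4131 CPM in their peritubular capillaries. Arterioles held 1922, 2408, 1441 and 1173 CPM and venules 1652, 2103, 1615 and 2267 CPM. No glomerular library reached the lowest of the other 12, and the contrasts were -1.41 ± 0.27 for glomeruli (adjusted p = 0.000354) and 1.09 ± 0.24 for peritubular capillaries (adjusted p = 0.00124). The glomerular call held in every fit that left out a mouse and with DESeq2.

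Cox4i1 (chromosome 8, 120668222 to 120674207), the common isoform of a regulatory complex IV subunit, measured 419, 325, 436 and 562 CPM in glomeruli and 1017, 1359, 1721 and 2331 CPM in peritubular capillaries. Values in arterioles were 983, 1183, 560 and 437 CPM and in venules 856, 1078, 872 and 1013 CPM. Glomeruli and peritubular capillaries did not overlap, while arterioles spanned the gap between glomeruli and venules. Its contrasts were -1.29 ± 0.32 (adjusted p = 0.00849) in glomeruli and 1.21 ± 0.28 (adjusted p = 0.00297) in peritubular capillaries.

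Sdhb (chromosome 4, 140961203 to 140979193), the iron-sulfur subunit of succinate dehydrogenase, showed 356, 124, 180 and 327 CPM in glomeruli, 353, 566, 242 and 243 CPM in arterioles, 613, 936, 972 and 1347 CPM in peritubular capillaries and 752, 538, 611 and 733 CPM in venules. Glomeruli overlapped with arterioles, and all 8 peritubular and venular values but the 538 CPM of 1 venular library lay above every glomerular and arteriolar value. The contrasts were -1.34 ± 0.38 (adjusted p = 0.0272) in glomeruli and 1.34 ± 0.33 (adjusted p = 0.00491) in peritubular capillaries. Atp5b, the catalytic β subunit, measured 420 to 830 CPM in glomeruli and 1356 to 3400 CPM in peritubular capillaries. Atp5b, Atp5g3, Cox4i1, Cox6a1, Cox6c, Ndufb9 and Sdhb were the 7 genes called in both contrasts by edgeR. A further 12 were called in glomeruli alone and 4 in peritubular capillaries alone, among them Ndufv1, the NADH-binding core subunit of complex I (1.32 ± 0.42, adjusted p = 0.0415), and Ndufb8 (1.16 ± 0.31, adjusted p = 0.0124). With DESeq2 all 19 glomerular calls held. Its peritubular calls were Atp5c1, Ndufs1 and Ndufv1, higher, and Ndufs5, lower, so none of the 7 kept its peritubular call there.

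**Figure D2:**
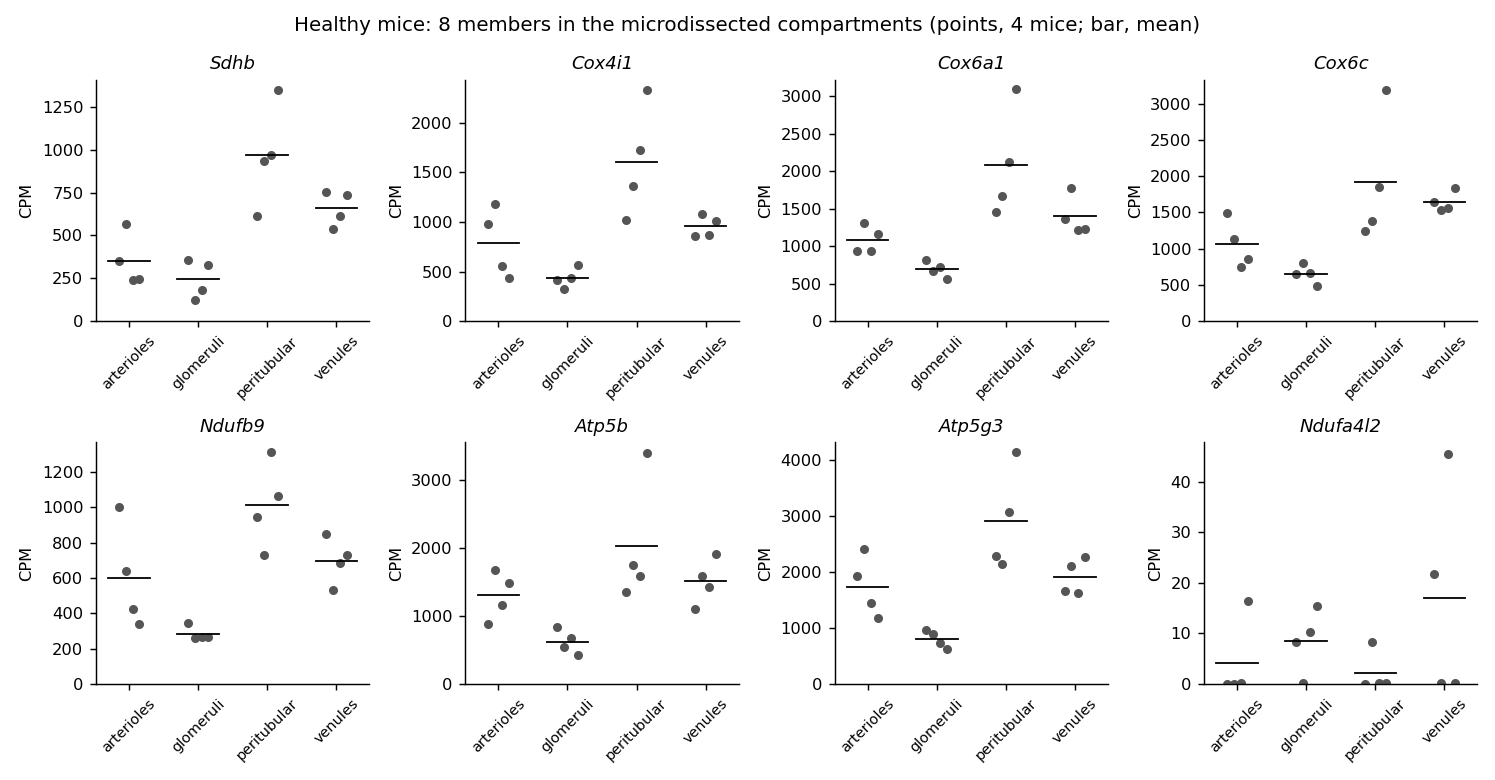
CPM (vertical axis, from 0) of 8 subunit genes in the microdissected compartments of the 4 healthy mice (points, 1 per mouse; bar, mean). For the first 7 genes the lowest point of each panel is glomerular and the highest peritubular, as for Atp5g3 with 618 and 4131 CPM, whereas the isoform Ndufa4l2 never passed 45.5 CPM.

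Among healthy arterioles and venules the subunit genes gave no calls by edgeR. In arterioles 2 were higher and 6 lower at an unadjusted p under 0.05 (9.88%, and 22.2% of all genes) and DESeq2 called 3, Ndufs5 and Ndufb7 among them, all higher, while 7.32% of all genes were called by edgeR. In venules 72 of 81 subunit genes were positive (median 0.50 against 0.14 for all genes), 12 had an unadjusted p under 0.05, all higher (14.8%, and 9.75% of all genes), DESeq2 called 0, and 0.591% of all genes were called. The direction in arterioles depended on scaling, since 32 of 81 genes were positive with TMM and 42 with RLE scaling, which moved the median of all genes there from -0.27 to -0.03. In peritubular capillaries 72 genes were positive under both scalings. In glomeruli RLE moved the median of all genes from 0.38 to 0.26, with 4 subunit genes positive in place of 5.

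Other mitochondrial genes divided in the same healthy comparison. Of 18 citric acid cycle genes none had a positive fold change in glomeruli (median -1.05, 1 called lower), and 16 were positive in peritubular capillaries (median 0.91, 1 called higher). The 18 genes of fatty acid oxidation had medians of -1.03 (2 called lower) and 1.22 (3 called higher). Assembly factors of the respiratory chain, which build the complexes but are not part of them, had medians of 0.13 in glomeruli and 0.31 in peritubular capillaries, with 0 of 49 called in either by edgeR. Of 8 tested transcripts of the mitochondrial genome, 6 were called lower in glomeruli and 0 in peritubular capillaries. Marker lists moved in the same contrasts: 14 of 18 proximal tubule markers were called lower in glomeruli and 16 of 18 higher in peritubular capillaries, where 5 of 13 endothelial markers were called lower, and their part in the subunit differences was not tested.

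In whole kidney the subunit genes ranged over several orders of magnitude. The highest mean CPM over the 28 libraries belonged in complex I to Ndufb8 (929.8) and Ndufb9 (812), in complex II to Sdhb (822) and the flavoprotein subunit Sdha (563), in complex III to the small subunits Uqcr10 (943) and Uqcrq (876), in complex IV to Cox6c (1419.5) and Cox6a1 (1279), and in complex V to Atp5b (1673) and Atp5g3 (1639). 5 genes were too low to be tested in whole kidney, namely Cox4i2, Cox7b2, Cox8c, Ndufa11b and Ndufb4c. The 84 that were tested had a median within-group SD of 0.174 on the log2 scale. Of these, 16 share a near-identical end with at least 1 other annotated gene, at the same place or elsewhere. Reads of these 16 could thus be split or lost in counting. Their levels are uncertain, and they include Cox6a1, Cox5b, Cox7c, Atp5g2, Atp5k, Atp5md, Ndufa12, Ndufb8, Ndufc1 and Ndufs5.

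The isoform pairs separated clearly. Complex IV isoforms that skeletal muscle, heart and brown fat use in place of the common forms were low: Cox6a2 had a mean of 3.64 CPM beside 1279 for Cox6a1, Cox7a1 49.98 beside 1126 for Cox7a2, and Cox8b 24.9 beside 866 for Cox8a. The testis-type Cox6b2 had 11.4 CPM beside 804 for Cox6b1, and the hypoxia-related Ndufa4l2 2.08 beside 313 for Ndufa4. The group means of Cox4i2, the lung-type isoform, were 0.164 to 0.497 CPM, where Cox4i1 had 1081 CPM over all libraries. Cox7b2 and Cox8c, both known from testis, had group means of at most 0.0288 and 0.126 CPM, against 519 for Cox7b. Among the 3 genes for the same c subunit protein, Atp5g3 had 1639 CPM, Atp5g1 320 and Atp5g2 1.65. Atp5g2 is among the genes with near-identical copies, so its low level is uncertain. Of the remaining complex IV genes of these families, Cox5a had 694 CPM, Cox5b 439 and Cox7a2l 155.

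In whole kidney CLP was followed by small shifts across the chain and a single call. At 4 h after surgery 59 of 84 subunit genes were positive against sham, with a median log2 fold change of 0.06 (all genes, 0.0014). By edgeR 0 were called, 1 gene, higher, had an unadjusted p under 0.05 (1.19%, and 10.3% of all genes), DESeq2 called 0, and 2.24% of all genes were called. At 24 h 72 of 84 were negative, with a median of -0.14 beside 0.02 for all genes. A single one was called, higher, where 5.28% of all genes were called. At 72 h 38 were positive and 46 negative, with a median of -0.01 (all genes, 0.03). None was called by edgeR or DESeq2, none had an unadjusted p under 0.05 where 13.8% of all genes did, and 3.89% of all genes were called.

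The 24 h shift ran through all 5 complexes. Of 39 complex I genes 32 were negative (median -0.15), of 4 complex II genes 3 (-0.10), of 8 complex III genes all 8 (-0.15), of 16 complex IV genes 14 (-0.12) and of 17 complex V genes 15 (-0.16). At an unadjusted p under 0.05 there were 14 lower and 1 higher, 17.9% of the subunit genes, which is close to the 15.6% of all genes. The count of negative genes depended on a single library: CLP 24 h replicate 4 had the lowest sum of subunit genes (2.81% of counts against 3.68% to 3.84% in the other 3), and without it 59 of 84 were negative and the median was -0.10. That library was also lowest for mitochondrial genome transcripts (6.49% against 9.71% to 11.6%) and for proximal tubule markers (3.23% against 4.32% to 4.73%). Proximal tubule markers held 5.76% to 6.38% in the 4 sham libraries, all above CLP, and their part in the shift was not tested.

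**Figure D3:**
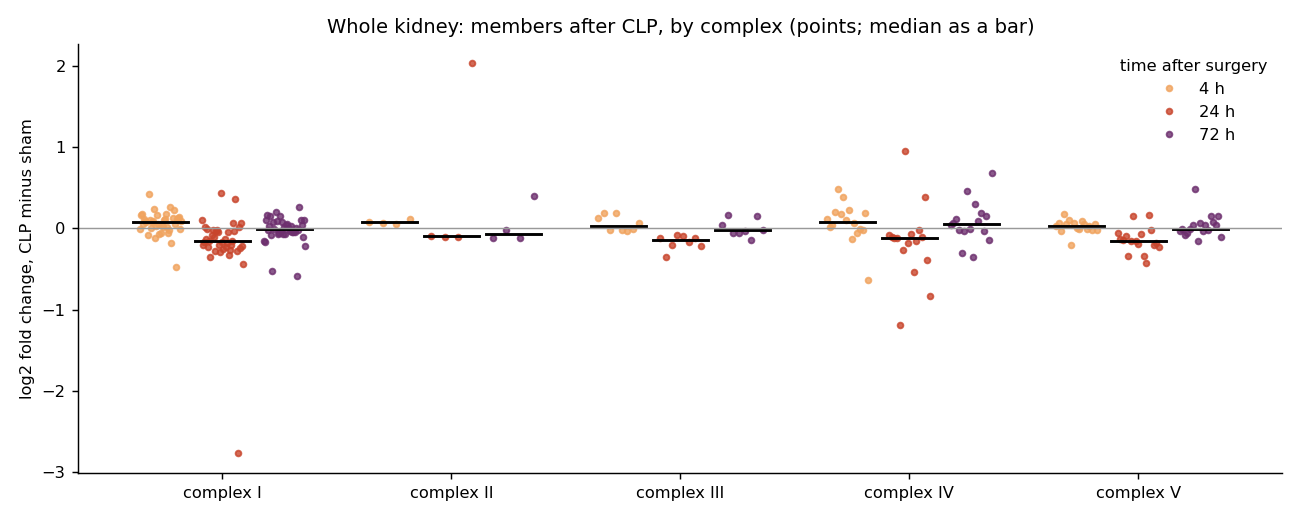
Log2 fold change of CLP against sham in whole kidney (vertical axis) for the 84 tested subunit genes, by complex (horizontal axis) and time (colour), with a bar at each median. The 24 h points lie mostly just under 0, with medians from -0.16 to -0.10, and the outlying points belong to genes of low or variable counts such as Ndufs6b (-2.77) and Sdhd (2.03).

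The fold change itself was compared between times. From 4 h to 24 h the effect of CLP moved down in 73 of 84 subunit genes (median -0.20, all genes 0.02), with 13 lower at an unadjusted p under 0.05 (15.5%, and 11.6% of all genes), 0 called by edgeR, 0 by DESeq2 and 1.84% of all genes called. From 24 h to 72 h it moved up in 68 of 84 (median 0.15, all genes -0.0024), with 7 higher at an unadjusted p under 0.05 (8.33%, and 8.28% of all genes), again 0 called by either tool, and 0.509% of all genes called. Without CLP 24 h replicate 4 the counts were 58 of 84 moving down and 55 of 84 moving up, with medians of -0.16 and 0.09. These contrasts share the 24 h libraries, so the second is not a repeat of the first. Uqcr11, a small complex III subunit, had the lowest p for the later difference, with values of 356, 457, 429 and 443 CPM in sham 24 h, 278, 344, 354 and 340 in CLP 24 h, 380, 475, 497 and 486 in sham 72 h and 425, 451, 552 and 622 in CLP 72 h. The 24 h groups did not overlap and the 72 h groups did, and the difference of the fold changes was 0.51 ± 0.18 (adjusted p = 0.272).

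Cox6b2 (chromosome 7, 4751792 to 4753094), the testis-type isoform of a subunit that bridges complex IV dimers, was the gene called at 24 h. Its 4 CLP libraries measured 21.4, 21.7, 22.7 and 24.4 CPM, and its 4 sham libraries 9.62, 13.9, 12.01 and 10.9 CPM. Every CLP 24 h value exceeded all of the other 24 whole kidney libraries, among which the highest was 18.8 CPM in CLP 72 h replicate 3. The means were 22.5 ± 1.35 and 11.6 ± 1.81 CPM (SD, n = 4), a log2 fold change of 0.96 ± 0.23 with an adjusted p of 0.00801. Leaving out any of the 8 libraries kept the call, with a largest adjusted p of 0.0391. Healthy mice had 8.76 to 10.9 CPM, sham 4 h 5.21 to 7.47, CLP 4 h 6.29 to 13.7, sham 72 h 6.27 to 10.1 and CLP 72 h 8.98 to 18.8, so the groups at 4 h and 72 h overlapped. Its common counterpart Cox6b1 had 630 ± 124 CPM in CLP and 755 ± 54.6 in sham 24 h, -0.26 ± 0.12 with an adjusted p of 0.244.

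The 4 genes with the smallest p on the lower side at 24 h did not pass. Larger fitted differences belonged to genes of low level, such as Ndufs6b (-2.77, 0.113 against 0.771 CPM), Cox6a2 (-1.20), Cox8b (-0.84) and Cox7a1 (-0.54). Cox8a (chromosome 19, 7215153 to 7217616), a small complex IV subunit, measured 604, 595, 625 and 394 CPM in CLP and 690, 791, 639 and 778 CPM in sham. The groups did not overlap, with a gap of 625 to 639, and the fold change was -0.39 ± 0.12 (adjusted p = 0.0679). DESeq2 called it. Atp5e, the ε subunit of the ATP synthase, measured 438, 428, 444 and 390 CPM against 469, 541, 592 and 551 in sham, also without overlap (-0.34 ± 0.12, adjusted p = 0.0927). Uqcr11, given above, had -0.36 ± 0.12 (adjusted p = 0.0973), and Ndufv3, an accessory subunit of the NADH-binding arm of complex I, had -0.44 ± 0.15 (adjusted p = 0.0924). Cox8a, Atp5e, Uqcr11 and Ndufv3 were picked here after their values were seen.

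Around the chain, few mitochondrial genes were called in the same CLP comparison of whole kidney at 24 h. None of 50 tested assembly factors, 18 citric acid cycle genes, 16 glycolysis genes, 17 regulators of mitochondrial biogenesis or 8 mitochondrial genome transcripts was called, with medians between -0.14 and 0.06. Fatty acid oxidation differed, with 4 of 18 genes called higher and 1 lower. Eci1, an isomerase needed for unsaturated fatty acids, rose by 1.23 ± 0.19 (adjusted p = 5.95e-05), Slc25a20, the carnitine-acylcarnitine carrier, by 0.79 ± 0.18 and Decr1, a reductase for polyunsaturated fatty acids, by 0.63 ± 0.16, while the medium-chain acyl-CoA synthetase Acsm2 fell by 0.70 on the log2 scale. Bnip3, a mitophagy receptor induced by hypoxia, rose by 1.18 ± 0.15 (adjusted p = 1.77e-06), and Pdk4, which inhibits pyruvate entry into the citric acid cycle, by 3.50 ± 0.85 (adjusted p = 0.0137). Cycs, the somatic cytochrome c that carries electrons from complex III to complex IV, fell by 0.50 ± 0.14 (adjusted p = 0.0237). Of the regulators, Ppargc1a, a coactivator that switches on mitochondrial genes, had -0.32, 0.16 and 0.24 at 4, 24 and 72 h, Nrf1 -0.12, -0.27 and 0.48, Esrra -0.15, 0.01 and 0.09, Tfam 0.05, -0.14 and -0.26, and Gabpa 0.01, 0.02 and -0.09, none of them called. Leukocyte markers were called higher in 8 of 10 tested genes and proximal tubule markers lower in 6 of 18, and their part in these values was not tested. Acsm2, given above under fatty acid oxidation, is also on the list of proximal tubule markers.

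Late sham against healthy mice in whole kidney gave more called subunit genes than CLP against sham, with which it shares the sham libraries. In the deposited table all 24 h and 72 h libraries stand together and all healthy and 4 h libraries stand together after them, so for the late times the operation, the time and whatever that arrangement stands for cannot be told apart. At 4 h 68 of 84 were negative (median -0.09), 0 were called by edgeR or DESeq2, 3 were lower at an unadjusted p under 0.05 (3.57%, and 9.13% of all genes), and 0.937% of all genes were called. At 24 h 5 were called higher and 2 lower, 7 of 84 where 6.41% of all genes were called, and at 72 h 9 higher and 3 lower, 12 of 84 where 8.44% were. The 7 at 24 h are a share near that of all genes. Both counts rested on individual mice. The 24 h count was 1 without healthy replicate 1 or sham 24 h replicate 4, 2 without healthy replicate 3 or sham replicate 3, 3 without healthy replicate 4, 4 without sham replicate 2 and 18 without sham replicate 1. The 72 h count was 7 without healthy replicate 1 or 3, 5 without sham 72 h replicate 2, 4 without replicate 3 or 4 and 27 without replicate 1. The share of all genes called in these fits is not given here. Cox8a was called in all of them at both times.

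Cox8a was lower in late sham than in healthy mice. Healthy mice had 1321, 1348, 1013 and 1055 CPM, sham 4 h 975, 985, 946 and 971, sham 24 h 690, 791, 639 and 778 and sham 72 h 815, 839, 779 and 765. All late sham values lay below every healthy value, with log2 fold changes of -0.71 ± 0.12 at 24 h (adjusted p = 0.00211) and -0.57 ± 0.12 at 72 h (adjusted p = 0.00938). Cox5b fell with it at 24 h (-0.46 ± 0.12, adjusted p = 0.0241). Sdhb went the other way, with 568, 678, 626 and 643 CPM in healthy mice, 707, 920, 1057 and 954 in sham 24 h and 740, 1072, 1149 and 1125 in sham 72 h. No sham value at either time overlapped with healthy, and it rose by 0.53 ± 0.15 at 24 h (adjusted p = 0.0305) and 0.70 ± 0.15 at 72 h (adjusted p = 0.00772).

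Ndufb4 (chromosome 16, 37647170 to 37654453), an accessory subunit of the membrane arm of complex I, measured 135, 181, 163 and 142 CPM in healthy mice, 199.7, 234, 233 and 254 in sham 24 h and 222, 235, 232 and 245 in sham 72 h. The sham values lay above all healthy ones, at 0.57 ± 0.13 (adjusted p = 0.0135) and 0.59 ± 0.13 (adjusted p = 0.0106). Cox6c, the most abundant complex IV gene, rose by 0.41 ± 0.11 and 0.55 ± 0.11. At 24 h Ndufa5 and Ndufs7, a core subunit near the quinone site, were also higher (0.53 and 0.54). At 72 h Sdha, Ndufb9, Ndufb8, Ndufa13, Uqcr10 and Atp5mpl were higher by 0.39 to 0.53, and the membrane anchor subunit Sdhd and Ndufs5 were lower by fitted values of -4.69 and -3.25. Sdhd measured 105, 6.11, 29.1 and 17.04 CPM in healthy mice and 3.88, 1.09, 0.87 and 0.215 in sham 72 h. The groups did not overlap, and the call was lost in 5 of the 8 fits that left out a library, as that of Ndufs5 was in 4, healthy replicate 1 among them in both.

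Replicate 1 of the 4 late whole kidney groups stood apart from the other 3, a pattern chosen after the values were seen. In 19 of 84 subunit genes replicate 1 was the highest library in sham 24 h, CLP 24 h, sham 72 h and CLP 72 h alike, and in 20 it was the lowest in all 4 groups. These are 22.6% and 23.8% of the subunit genes, against 8.79% and 7.2% of the 14936 genes tested, while replicates 2, 3 and 4 had at most 2 such genes in either direction. Cox7c (chromosome 13, 86044816 to 86046904), a small complex IV subunit, showed it most plainly. It measured 561 CPM in sham 24 h replicate 1 against 120 to 202 in the other 3, 893 against 31.6 to 220 in CLP 24 h, 493 against 107 to 212 in sham 72 h and 545 against 64.7 to 211 in CLP 72 h. Healthy mice had 706 to 1202 CPM. The genes highest in replicate 1 included Sdhc, Sdhd, Ndufa1, Ndufa4, Ndufb1, Ndufb3, Atp5j, Uqcrfs1 and Cox5b. The counts of 19 and 20 are by rank, and some margins were far smaller than that of Cox7c. Cox5b in replicate 1 was 1.03 to 1.12 times the highest other library, and Atp5pb in sham 24 h had 616.5 against 615.5 CPM. The labels give no batch that would separate these mice.

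Without replicate 1 of the 4 late groups the sham calls rose to 25 at 24 h (13 higher, 12 lower) and 31 at 72 h (18 higher, 13 lower). Calls over all genes rose too, to 1189 higher and 1471 lower at 24 h and 1301 higher and 1659 lower at 72 h, of 15294 tested. The counts for CLP were the same as with it, 1 at 24 h (Cox6b2, 0.90) and 0 at 72 h, and the CLP 24 h median was -0.20 with 72 of 84 genes negative. Cox7c, Ndufa1 and the membrane anchor subunit Sdhc were among the genes then called lower at both times. Among the sham-called genes, replicate 1 was the sham library nearest to the healthy mean in 6 of 7 at 24 h and 10 of 12 at 72 h, as it was in 60.7% and 61.9% of all tested subunit genes and in 41.7% and 41.2% of all genes.

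**Figure D4:**
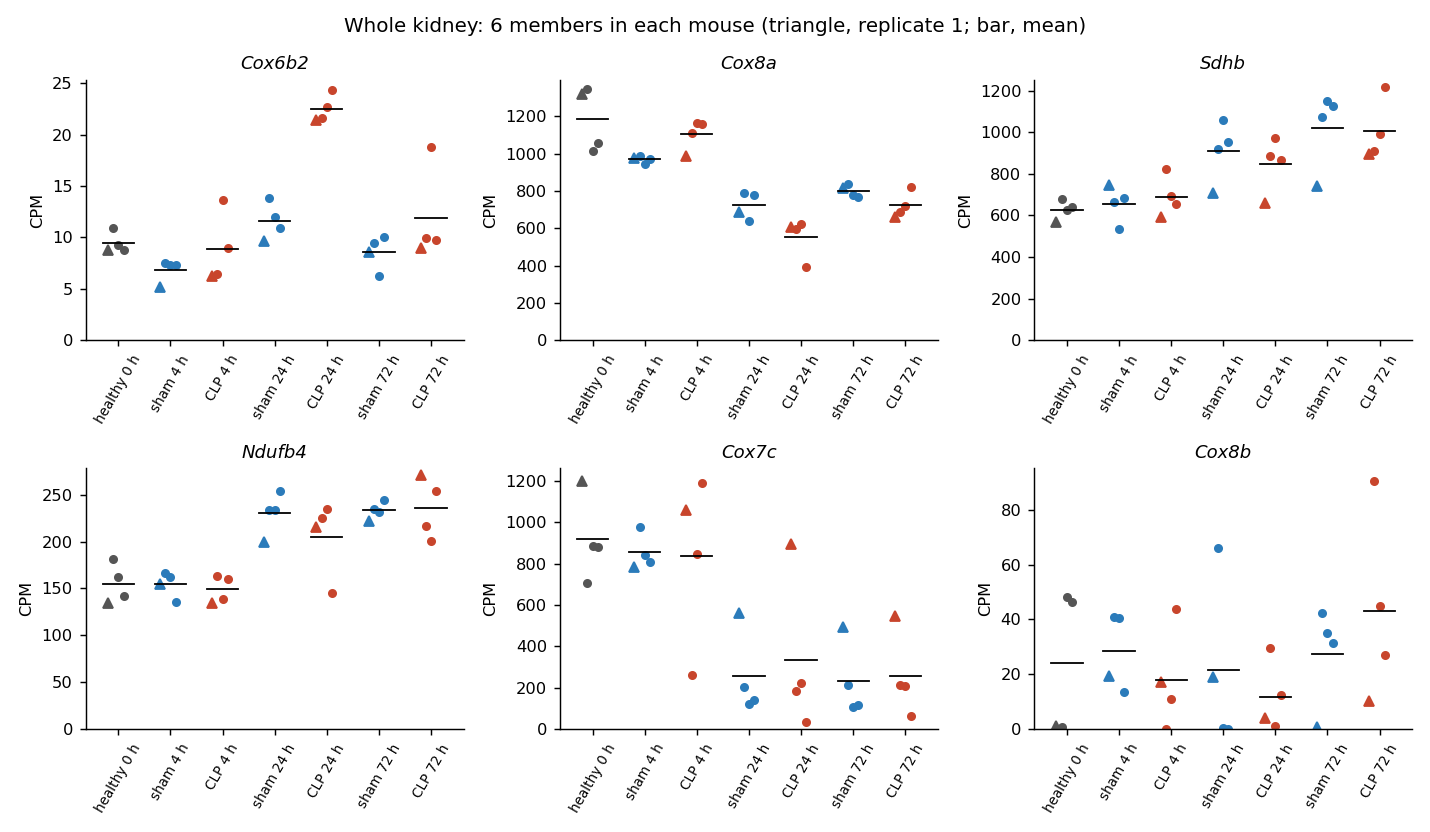
CPM (vertical axis, from 0) of 6 subunit genes in each of the 28 whole kidney libraries, by group (horizontal axis). Triangles are replicate 1, circles the other mice and bars the means. Cox6b2 is highest in the 4 CLP 24 h libraries (21.4 to 24.4 CPM), Cox8a lies under 840 CPM in all late groups, and in Cox7c the triangle is the highest point of each late group.

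Cox8b, the muscle and brown fat isoform of Cox8a, varied more among mice of a group than any other subunit gene tested (within-group SD of 2.30 on the log2 scale). It ranged from 0 CPM in CLP 4 h replicate 2 to 90.6 CPM in CLP 72 h replicate 2, with 1.18, 0.532, 48.0 and 46.3 CPM among the healthy mice alone. Ucp1, the uncoupling protein that defines brown fat, was at 0.237, 0.133, 105 and 64.9 CPM in those mice. Across the 28 libraries, on log2(CPM + 1), Cox8b went with Ucp1 at Pearson's r = 0.934 and Spearman's rho = 0.778, and with Cidea, another brown fat gene, at r = 0.967 and rho = 0.901. It went with Cox7a1 at r = 0.563 and rho = 0.629. The permutation p was 1e-05 for the first pair of genes, the smallest that 100000 permutations can give (adjusted over the 3 relations, 2e-05), and 0.002 for r and 5e-04 for rho of Cox7a1. Without the 2 libraries farthest from the median, r was 0.923, 0.959 and 0.53, and after removing group means it was 0.962, 0.98 and 0.687. The relations were examined after the values were seen. Cox8b was not called in any CLP or sham comparison of whole kidney.

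The microdissected compartments gave few calls for any gene after CLP, and in 3 of them none for a subunit gene by edgeR. In arterioles the 81 tested subunit genes had medians of -0.11, -0.30 and -0.50 against sham at 4, 24 and 72 h (all genes, 0.01, -0.03 and -0.06), with 34, 24 and 26 positive. There, 0, 7 and 8 were lower at an unadjusted p under 0.05 and none higher, which is 0%, 8.64% and 9.88% of the subunit genes where all genes had 3.43%, 15.5% and 17.2%. EdgeR called 0.00821%, 0.0164% and 0% of all genes. DESeq2 called 0, 2 and 2 subunit genes, all lower, and its share of all genes is not given here. Cox6a1, the common isoform of a small complex IV subunit, was among the latter 2, with 261 ± 108 CPM in CLP 72 h and 639 ± 113 in sham 72 h (SD, n = 4), groups that did not overlap (edgeR, -1.29 ± 0.40, adjusted p = 0.158). The other 3, Ndufs5 and Cox7a1 at 24 h and Ndufa4l2 at 72 h, were at 0 in all CLP libraries and at or near 0 in some sham libraries. Summed subunit genes held 1.61%, 1.67%, 1.85% and 1.92% of counts in CLP 72 h arterioles and 1.91%, 2.01%, 2.41% and 2.05% in sham, overlapping at the edge, while proximal tubule markers held 0.162% to 0.427% and 0.235% to 0.941%.

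In glomeruli the medians over 82 tested genes were -0.08, -0.30 and -0.0037 at the 3 times (all genes, -0.02, -0.04 and 0), and 34, 22 and 40 genes were positive. By edgeR 0 were called at each time, as by DESeq2, with 0 higher and 1 lower, 1 higher and 6 lower, and 2 higher and 1 lower at an unadjusted p under 0.05, or 1.22%, 8.54% and 3.66% where all genes had 5.29%, 12.4% and 10.3%. Of all genes, 0.11%, 0.137% and 0.0343% were called. At 24 h Ndufb5, an accessory complex I subunit, had 124 ± 42.5 CPM after CLP and 271 ± 61.3 after sham, and Cox6b1 248 ± 109 and 499 ± 57.1. Neither pair of groups overlapped, and the adjusted p was 0.332 for each. Both genes were picked here after their values were seen.

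In venules the medians over 81 genes were 0.04, -0.12 and -0.08, and 46, 29 and 29 genes were positive. EdgeR called 0 at each time, with 3 higher and 0 lower, 2 higher and 1 lower, and 1 higher and 1 lower at an unadjusted p under 0.05, or 3.7%, 3.7% and 2.47% where all genes had 5.68%, 10.2% and 12.7%. DESeq2 called 0, 1 and 3. Those were Ndufa4l2 at both later times, higher, and Sdhd and Cox6a2 at 72 h, lower, genes with counts in only some of the libraries. Of all genes, edgeR called 0%, 0.0813% and 0.0443%, and the share that DESeq2 called is not given here.

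Peritubular libraries differed from the rest at 72 h, when 7 of 78 tested subunit genes were called lower after CLP and none higher. That is 8.97%, under the 20.5% of all genes called lower, and the subunit median of -0.89 was above the median of all genes, -1.28. The shift of all genes was not stable, since RLE scaling moved it to -0.90, the subunit median to -0.47 and the number of positive subunit genes from 10 to 22, and left 0 called. CLP 72 h libraries showed 2949 to 5595 detected genes against 7137 to 9816 in sham 72 h, summed subunit genes held 1.74% to 3.32% against 3.63% to 4.26%, transcripts of the mitochondrial genome 14.1% to 26.5% against 7.56% to 12.3%, and proximal tubule markers 3.76% to 4.44% against 7.05% to 10.8%. None of these 4 ranges overlapped, and their part in the calls was not tested. At 4 h and 24 h edgeR and DESeq2 called 0 subunit genes, none had an unadjusted p under 0.05 where 3.26% and 19.3% of all genes did, the medians were -0.29 and -0.29 (all genes, -0.11 and -0.13), and 0% and 0.051% of all genes were called. RLE scaling moved the medians of all genes to 0.04 and 0, and then 29 and 39 of 78 subunit genes were positive, where TMM gave 18 and 21.

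The 7 genes were 4 of complex I, 1 of complex IV and 2 of complex V. Ndufa9 (chromosome 6, 126821721 to 126849136), an accessory complex I subunit, measured 217, 260, 151 and 314 CPM in sham and 0, 84.2, 2.26 and 0 CPM in CLP. The groups did not overlap (-3.44 ± 1.16, adjusted p = 0.0397). Ndufs7 measured 475, 332, 434 and 622 CPM against 0.28, 187, 0 and 181 (-2.34 ± 0.91, adjusted p = 0.0494), and Atp5a1, the α subunit of the ATP synthase, 936, 1064, 1846 and 987 against 79.3, 463, 288 and 732 (-1.63 ± 0.53, adjusted p = 0.034), again without overlap.

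Ndufa12 (-2.14) and Atp5g3 (-1.27) overlapped between groups. Cox6b2 and Ndufs5 had no count in any CLP 72 h library. Against a floor of 3 counts per library, which covers counting error only, the sham means of 18.0 ± 22.7 and 9.66 ± 13.8 CPM put them at least 56.9-fold and 30.6-fold lower, but 1 and 2 of their 4 sham libraries were also at 0. Each of the 7 calls was lost in at least 3 of the 8 fits that left out a library. Without CLP 72 h replicate 3 none of the 78 was called, without CLP replicate 1 a single other gene was (Ndufs4), and without sham 72 h replicates 1, 2, 3 or 4 there were 2, 4, 3 and 4.

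**Figure D5:**
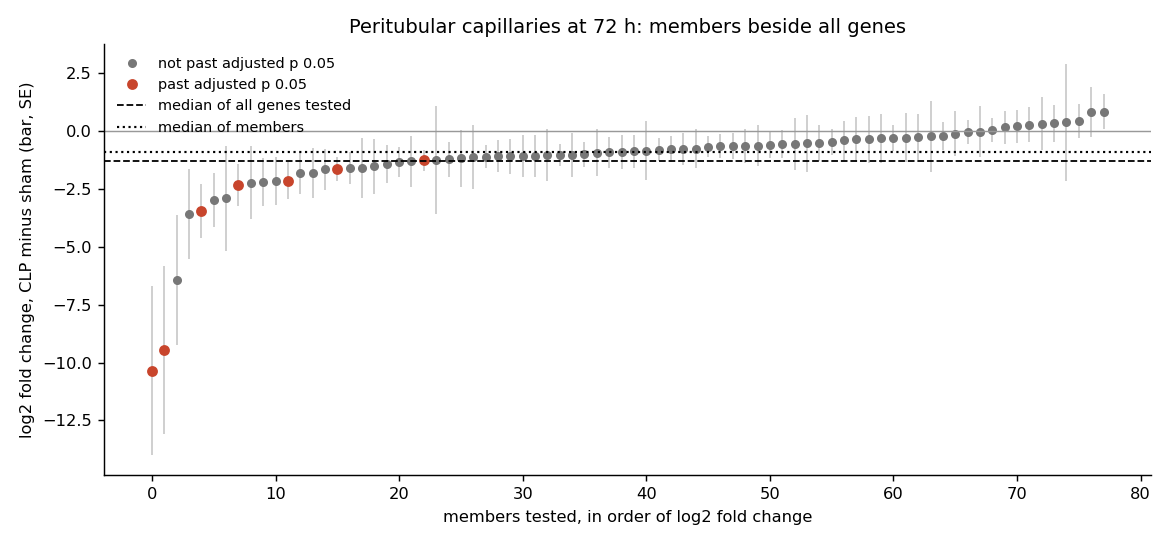
Log2 fold change of CLP against sham at 72 h in peritubular capillaries (vertical axis; bars, SE) for the 78 tested subunit genes in order of fold change (horizontal axis), with the 7 called genes in red. The dotted median of the subunit genes (-0.89) lies above the dashed median of all genes (-1.28), and the 2 lowest points are genes with no CLP count, whose fitted fold is no measured size.

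Sham at 4 h against healthy mice gave no subunit calls in the microdissected compartments by edgeR or DESeq2. In arterioles 26 of 81 genes were positive, with 1 higher and 2 lower at an unadjusted p under 0.05, in glomeruli 40 of 82, with 2 and 1, in peritubular capillaries 26 of 78, with 0 and 0, and in venules 24 of 81, with 0 and 2. At that threshold all genes had 5.48%, 4.85%, 2.95% and 4.76%. Of all genes, 0.00686% were called in glomeruli and 0% in each of the other 3.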

How the data were processed

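QuantSeq 3′ end libraries of 28 mice (4 per group) were measured in 5 compartments. The deposited table holds raw read counts per Ensembl gene, whole numbers that the authors did not normalise, per the file headers and values. The submitters' processing notes name the aligner STAR 2.7, the counters featureCounts and HTSeq 0.13, SAMtools 1.9, MultiQC 1.7 and FastQC 0.11.8, and builds GRCm38.p6 and GRCm39. Which build was aligned to, which counter made the table, and whether strand was used are not given in the sources used here. Without strand, reads of overlapping genes cannot be told apart. The time row of the table differs from the labels for healthy mice, and the labels were used.

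Counts were fitted in R 4.3.3 with edgeR 4.0.16 (robust quasi-likelihood, TMM, filterByExpr, two-sided F test), the 28 libraries of a compartment together, or the 16 healthy microdissected libraries with the mouse as a block. DESeq2 1.42.0, RLE scaling, no filter, no mitochondrial genome genes, only the groups compared, a replicate block and leaving out each library were alternatives. The fit without replicate 1 of the late whole kidney groups was added after seeing the data. Whether replicate numbers pair CLP and sham mice was checked from deviations within groups. Correlations above 0.1 were found in 0 of 4 pairs at 4 h, 3 of 4 at 24 h (highest, 0.552) and 2 of 4 at 72 h (highest, 0.438). No pairing was used in the main fits, so any structure shared by replicate number at the late times was not fitted there. No 2 libraries held identical counts. The labels name biological replicates, 1 per mouse. The scripts were tested on simulated counts. The members and lists were chosen with earlier results of these data known. Named genes are the 6 highest and 6 lowest called per comparison, all isoform pairs, the 2 most abundant genes per complex, and up to 4 called genes per other list; others are said to be chosen after their values were seen, or serve to show a count. Near-identical copies were sought with BLAST+ 2.17.0 (last 200 bases, at least 95% identity over at least 100 bases), and promoter motifs with Python 3.11.15. Gene positions are GENCODE M21. Values of 1 named gene are not reported here.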

Additional observations from a re-analysis of the deposited data

Results flagged for a closer look

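Of 84 groups of 4 libraries examined for 1 library far from the other 3, 7 had one, where chance gives about 5%. Among summed subunit genes in whole kidney, healthy replicate 1 was high at 4.52% of counts (others 3.96% to 4.02%) and CLP 24 h replicate 4 low at 2.81% (others 3.68% to 3.84%). The same CLP 24 h library was low for Cox8a, at 394 CPM against 595 to 625. Cox6b2 was low in sham 4 h replicate 1 (5.21 CPM, others 7.30 to 7.47) and high in CLP 72 h replicate 3 (18.8 CPM, others 8.98 to 9.94). Cox6c was low in CLP 4 h replicate 1 (1198 CPM, others 1333 to 1353), and Atp5b high in sham 4 h replicate 1 (1812 CPM, others 1645 to 1656).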

How the results depend on the processing

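Counts of called subunit genes were recomputed under 170 alternatives, of which 145 stayed within 1.5 times the main count and 25 did not. With DESeq2 the counts were 2 in arterioles at 24 h and 2 at 72 h, 1 in venules at 24 h and 3 at 72 h, 4 in peritubular capillaries at 72 h, 2 in whole kidney for CLP at 24 h (Cox6b2 and Cox8a), 16 and 22 for sham at 24 h and 72 h, and 3, 34 and 4 in healthy arterioles, glomeruli and peritubular capillaries. RLE scaling gave 0 in peritubular capillaries at 72 h, 6 in healthy peritubular capillaries and 1 in healthy arterioles. Of all genes it called 130 higher and 902 lower, 373 higher and 331 lower, and 739 higher and 197 lower in these comparisons. Without the filter on low counts there were 0 in peritubular capillaries at 72 h and 3 for CLP at 24 h in whole kidney (Cox6b2, Ndufv3 and Atp5k). With only the groups compared there were 0 in peritubular capillaries at 72 h, and 14 and 25 for sham at 24 h and 72 h. The replicate block gave 4 in peritubular capillaries at 72 h and 17 and 22 for sham. No replicate block gave 1 in healthy arterioles. At 24 h 3 of 4 whole kidney libraries correlated best with their own number. The late groups of 3 mice gave 25 and 31 for sham, with the calls over all genes given above. Leaving out 1 library at a time gave 0 to 9 in peritubular capillaries at 72 h, 1 to 2 for CLP at 24 h, 1 to 18 and 4 to 27 for sham, 0 to 1 in healthy arterioles, 4 to 13 in healthy glomeruli and 0 to 16 in healthy peritubular capillaries. The cause was not tested. Except for RLE scaling and the late groups of 3 mice, the share of all genes called under an alternative is not given here. Those counts therefore do not show whether subunit genes were called more often than other genes. Of 330 alternative values of named genes, 0 reversed, 57 no longer passed and 273 kept their direction and side of the threshold. The fits that left out 1 library at a time are not among these 330. The microdissected compartments had median totals of 8.236 M to 10.01 M counts, against 8.137 M in whole kidney. Fewer genes were nevertheless detected in them, and a gene was often at 0 in some mice of a group. The whole kidney results mix all cell types.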

Other observations

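Other mitochondrial genes also differed between sham 24 h and healthy mice in whole kidney, where 6.41% of all genes were called. For this comparison too, the operation, the time and the arrangement of the libraries described above cannot be told apart. Of 8 tested transcripts of the mitochondrial genome 4 were called lower, among them mt-Nd2 (-0.91 ± 0.18, adjusted p = 0.00439) and mt-Co1 (-0.48 ± 0.11, adjusted p = 0.0135), which encode core subunits of complexes I and IV, and none was higher. Of 50 assembly factors 3 were called higher and 2 lower. Cox10, which makes the haem of complex IV, rose by 0.89 ± 0.18 (adjusted p = 0.00583) and Surf1, a complex IV assembly factor, by 0.71 ± 0.15 (adjusted p = 0.00734), while Cox16 fell by 1.6 (adjusted p = 0.0199). The citric acid cycle had 3 of 18 genes called higher, Pdha1 (0.47), Suclg1 (0.37) and Mdh2 (0.47). Fatty acid oxidation had 3 of 18, Acaa2 (1.05), Cpt2 (0.85) and Etfb (0.62). The summed share of the 89 nuclear subunit genes was 3.76% to 3.98% in sham 24 h and 3.96% to 4.52% in healthy mice, and that of the mitochondrial genome 9.88% to 10.8% and 13.2% to 14.3%.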
